A study of Caenorhabditis elegans with 48 samples.

Results

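Ribosome footprints were compared between 4 Ribo-seq libraries of Caenorhabditis elegans worms on RNAi against E02H1.1 and 4 Ribo-seq libraries of worms on the Empty_vector control, which are 8 of the 48 libraries of the series. All 10741 genes of the footprint count table were considered, and 10736 had enough counts to be tested. The labels give both groups the source young adult and no strain, allele, age in hours or number of worms, so that the RNAi food is the only stated difference between them. Another group of 4 footprint libraries, on RNAi against C27F2.4, was fitted together with them and shares their control. Over these 12 libraries no gene of the footprint table had fewer than 79 summed counts, while the mRNA count table holds 19454 genes. Genes with few footprints were thus absent before any test. The mRNA-seq libraries of the same groups were set beside the footprints, with a test of whether a footprint change differed from the change of the message. No label says that an mRNA-seq and a footprint library share a culture.

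In RNAi, worms eat bacteria that make double-stranded RNA, and the matching transcript is degraded. Ribo-seq sequences the short stretches of mRNA that ribosomes shield from nuclease. The share of footprints that falls on a gene thus reports the ribosomes on its messages relative to those on other genes. E02H1.1 is the worm homologue of DIMT1, the methyltransferase that puts dimethyladenosine near the end of the RNA of the small ribosomal subunit and that also takes part in the assembly of that subunit. C27F2.4 is the homologue of BUD23, which methylates a guanosine of the same ribosomal RNA. The series title concerns methylation of 18S rRNA and its transmission between generations.

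Footprint depth was 5782763 to 8658561 counts per Empty_vector library and 4230962 to 6394487 per E02H1.1 library, and libraries are named by the letter of their column. Levels are given as normalised CPM, counts scaled to library size, which are not scaled to gene length and are therefore compared only within a gene. The first principal component of the footprint libraries held 40.7% of the variance, and all 4 E02H1.1 libraries lay on one side of all 4 Empty_vector libraries on it. Empty_vector C stood farthest from its group, with a median absolute deviation of 0.102 on the log2 scale against 0.0623 to 0.0658 for the other 3. Adult markers were at or near zero: none of the 6 vitellogenin genes (yolk proteins of adult hermaphrodites) was in the footprint table, and their mRNA summed to 1.44 to 4.16 CPM per library. Genes of the embryonic sheath and apical matrix summed to 13200 to 16800 footprint CPM, so the groups are called here by their RNAi and not by the labelled stage. The labels do not say that the libraries of a group came from separate cultures, and the p-values reflect library-to-library spread, which may be technical only.

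Footprints of E02H1.1 itself were at 47.6, 41.2, 47.6 and 46.4 CPM in the Empty_vector libraries A to D and at 10.2, 10.9, 8.73 and 15.03 CPM in the E02H1.1 libraries. The groups did not overlap, and the means were 45.7 ± 3.05 and 11.2 ± 2.70 CPM (SD, n = 4 each). The log2 fold change was -1.99 ± 0.11 (SE; edgeR adjusted p = 4.42e-11), beside -1.83 ± 0.07 in mRNA. Footprints of C27F2.4 did not pass the test, at a mean of 62.1 CPM in both groups and a log2 fold change of -0.00 ± 0.07 (edgeR adjusted p = 0.986).

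Across all genes, 2145 of 10736 (20%) passed an adjusted p of 0.05 in edgeR's quasi-likelihood test, of which 1154 were higher (10.7% of genes tested) and 991 were lower (9.23%) on E02H1.1 RNAi. The 4 and 4 libraries did not overlap for 2476 genes (23.1%), among them 1785 of the called genes. Most changes were small, with a median size of 0.34 on the log2 scale among called genes, but the larger ones ran mostly upward. A change of at least 1.5-fold was seen for 508 higher and 60 lower genes, and one of at least 2-fold for 160 higher and 16 lower genes. The median log2 fold change of all genes was 0.005, a value largely set by the normalisation. It was 0.021 with library totals and -0.002 with DESeq2 size factors.

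**Figure D1:**
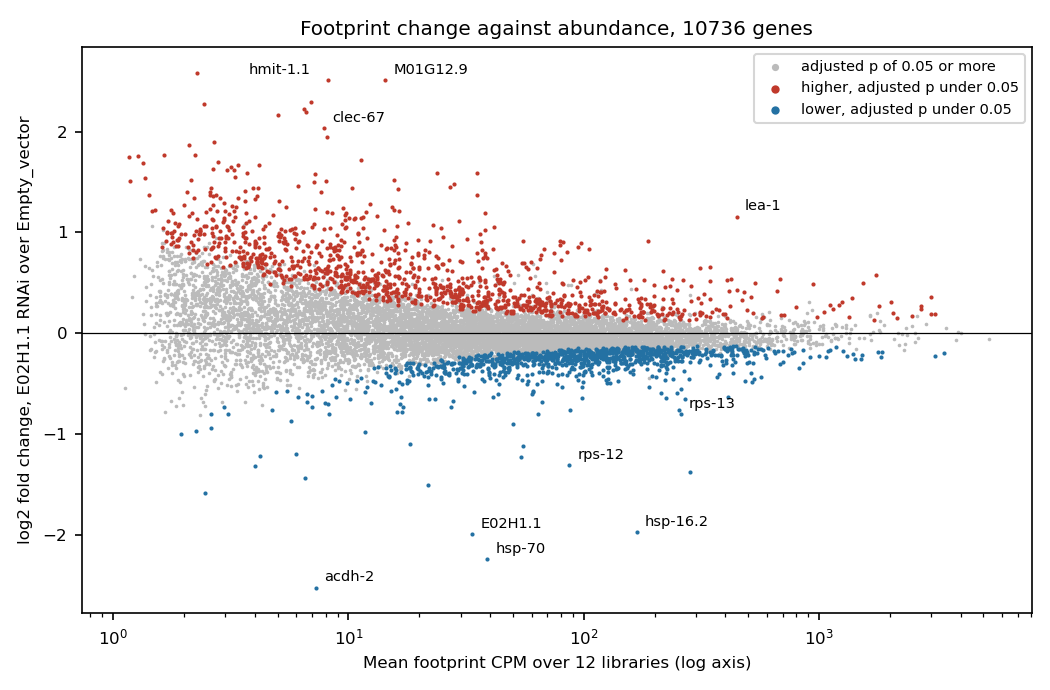
Each point is 1 of 10736 genes, with its mean footprint CPM over 12 libraries (log axis) against its log2 footprint fold change on E02H1.1 RNAi over Empty_vector; red and blue points passed an adjusted p of 0.05. Higher calls predominate at low CPM and lower calls at high CPM, and 160 genes rose at least 2-fold against 16 that fell as much.

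The direction of the calls differed with abundance. In the lowest quintile of mean CPM (1.12 to 7.44 CPM) 318 genes were higher and 21 lower, with a median log2 fold change of 0.235. In the highest quintile (up to 5270 CPM) 160 were higher and 422 lower, with a median of -0.05. Precision differed with it, since the median SE of a log2 fold change was 0.24 in the lowest quintile and 0.05 in the highest. The E02H1.1 libraries were on average shallower than the Empty_vector libraries, and with all libraries thinned to the smallest total the counts were 864 higher and 840 lower. Without Empty_vector C, E02H1.1 A or E02H1.1 B, the higher genes numbered 760, 720 and 754.

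The largest rises among genes with a mean of at least 10 CPM in either group included hmit-1.1, which encodes a proton-coupled myo-inositol transporter. A gene low in Empty_vector could reach that level through the E02H1.1 libraries alone, as hmit-1.1 did (means of 2.90 and 16.54 CPM). Footprints of hmit-1.1 were at 3.49, 3.84, 2.00 and 2.27 CPM in Empty_vector and 18.4, 15.3, 12.98 and 19.4 CPM on E02H1.1 RNAi. The lowest E02H1.1 library was thus more than 3 times the highest control, and the log2 fold change was 2.51 ± 0.18 (adjusted p = 3.22e-09). M01G12.9, which has a sequence name only, rose by the same 2.51 ± 0.15, from 4.58 ± 0.92 to 25.6 ± 2.52 CPM (SD, n = 4 each). The C-type lectin gene clec-67 went from 2.41, 3.98, 2.24 and 2.97 CPM to 10.8, 13.01, 11.3 and 11.7 CPM, a log2 fold change of 2.04 ± 0.18. The tyrosinase gene tyr-2 rose by 1.72 ± 0.20, the transthyretin-related ttr-15 by 1.59 ± 0.15 and the neuropeptide-like nlp-24 by 1.45 ± 0.14. The other 6 of the 12 highest carry sequence names only: ZK1055.6, C06E8.5, Y119D3B.21, C42D4.3, C45B2.2 and ZK1055.7 rose by 1.48 to 2.19. Among these, Y119D3B.21 had the tightest groups, at 20.5, 20.6, 16.13 and 21.6 CPM against 59.9, 58, 58.5 and 58.7 CPM. By the rule that chose them, the 4 libraries of each group did not overlap for any of the 24 genes named as highest or lowest.

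**Figure D2:**
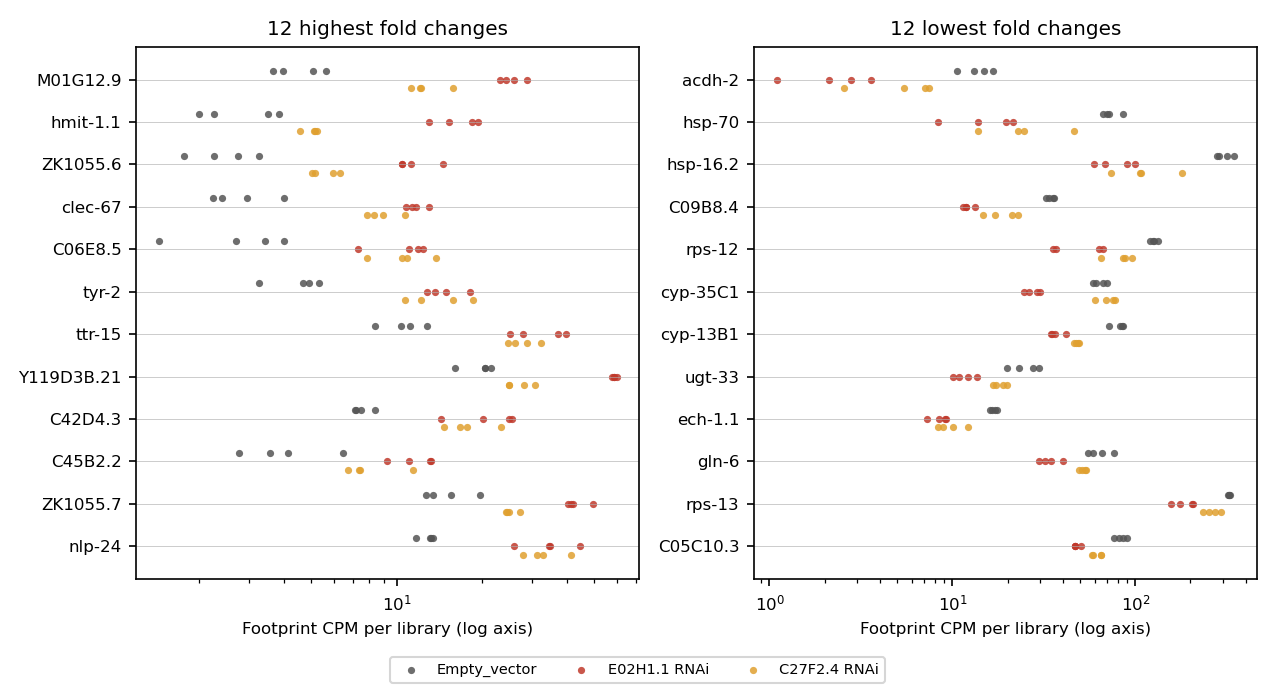
Footprint CPM (log axis) of every library for the 12 genes with the highest and the 12 with the lowest log2 fold change, as grey points for Empty_vector, red for E02H1.1 RNAi and yellow for C27F2.4 RNAi (4 libraries each). For hmit-1.1 the C27F2.4 libraries sit near 5 CPM, between 2.00 to 3.84 CPM in Empty_vector and 12.98 to 19.4 CPM on E02H1.1 RNAi, whereas for cyp-35C1 they sit with Empty_vector.

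The largest fall among genes with a mean of at least 10 CPM in either group was that of acdh-2, an acyl-CoA dehydrogenase gene, from 10.6, 14.8, 13.1 and 16.7 CPM to 3.61, 2.80, 2.12 and 1.1 CPM (log2 fold change -2.52 ± 0.31, adjusted p = 3.16e-05). Inducible heat shock genes came next. The cytosolic chaperone gene hsp-70 went from 69.9, 85.8, 72.1 and 66.6 CPM to 13.8, 21.4, 19.6 and 8.30 CPM (-2.25 ± 0.37). The small heat shock gene hsp-16.2 went from 316, 346, 285 and 281 CPM to 68.5, 89.4, 98.9 and 59.0 CPM (-1.97 ± 0.26). Both belong to families with near-identical copies, among which the authors' counting could have split reads. Other genes of breakdown and detoxification followed: the cytochrome P450 genes cyp-35C1 (-1.23 ± 0.09) and cyp-13B1 (-1.12 ± 0.07), the UDP-glucuronosyltransferase gene ugt-33 (-1.1 ± 0.13) and the enoyl-CoA hydratase gene ech-1.1 (-0.98 ± 0.13). The glutamine synthetase gene gln-6 fell by 0.90 on the log2 scale, and C09B8.4 and C05C10.3, which have sequence names only, fell by 1.51 and 0.80. The last 2 of the 12 lowest, rps-12 and rps-13, encode proteins of the small ribosomal subunit.

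DIMT1 acts on the 40S subunit of the ribosome, and whether that bears on the changes below was not tested. Of 31 tested 40S protein genes, 10 fell (32.3%), none rose, and the median log2 fold change was -0.14. Over all genes tested the median was 0.005 and 9.23% were lower. In the highest quintile of mean CPM the median was -0.05 and 422 of 2147 genes were lower. Among the 40S genes the drop was largest for rps-12, at 133, 126, 125 and 120 CPM in Empty_vector and 66.3, 36.7, 35.6 and 62.9 CPM on E02H1.1 RNAi (-1.31 ± 0.19, adjusted p = 0.00115). rps-13 went from 327, 325, 322 and 328 CPM to 206, 176, 157 and 205 CPM (-0.80 ± 0.07), and the 4 Empty_vector libraries stood within 7 CPM of each other. The other 8, given to complete the set, were ubl-1 (a ubiquitin-like fusion of a 40S protein) at -0.76, rps-22 at -0.65, rps-2 at -0.63, rps-4 at -0.49, rps-6 at -0.47, rps-17 at -0.44, rps-1 at -0.40 and rps-8 at -0.19. Without E02H1.1 D, 16 members were lower.

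Within the knockdown, libraries B and C were lower than A and D for all 31 of the 40S genes and for 41 of 43 genes of the 60S subunit, an order that 17.6% of all genes showed. Summed 40S footprints were 12380 to 12700 CPM in Empty_vector, 11680 and 11830 CPM in E02H1.1 A and D, and 10050 and 9531 CPM in E02H1.1 B and C. With B and C both left out, a choice made after this order was seen, 9 of the 10 40S genes remained lower, with rps-12 at -0.96 ± 0.12 (adjusted p = 7.62e-05) and rps-13 at -0.66 ± 0.07 (adjusted p = 1.53e-05). The exception was rps-8, at an adjusted p of 0.461.

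Against 422 of 2147 genes lower in the highest quintile of mean CPM (median -0.05), the 60S list gave 9 of 43 (20.9%). None of the list was higher, and its median was -0.08. The stalk protein gene rla-1 had the largest fall, from 314, 289, 303 and 300 CPM to 215, 184, 168 and 230 CPM (-0.59 ± 0.08), and rla-0, for the protein that anchors the stalk, went from 439 ± 19.8 to 353 ± 29.7 CPM (-0.31 ± 0.06). The 60S sum did not separate the groups: it was 14790 to 15160 CPM in Empty_vector, 15050 and 15380 CPM in E02H1.1 A and D, and 13160 and 12500 CPM in B and C. With B and C left out, only rla-1 of the 60S list was past the threshold (-0.44 ± 0.08, adjusted p = 0.00152). Genes of the mitochondrial ribosome stood near zero, with 1 higher and 2 lower of 66 and a median of -0.002, and these calls were lost when single libraries were left out (E02H1.1 D for all 3).

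For many of these genes the footprints fell relative to the message. The difference between footprint change and mRNA change, tested as an interaction of assay and RNAi, passed the threshold for 1138 of 10714 genes (10.6%), and it was negative for 15 of 31 40S genes and 17 of 43 60S genes and positive for none of either list. In mRNA alone, where 5393 of 13637 genes (39.5%) were called, 8 of the 40S genes were higher and 5 lower, and 17 of the 60S genes were higher and 2 lower. For rps-12, the mRNA log2 fold change was -0.05 ± 0.04, and the interaction was -1.27 (adjusted p = 0.000168). For rla-0 footprints and mRNA moved in opposite directions, at -0.31 and 0.32. With E02H1.1 B and C left out of both assays, the interaction was negative for 7 of the 40S and 5 of the 60S genes, with rps-12 at -0.95 and rla-0 at -0.63.

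**Figure D3:**
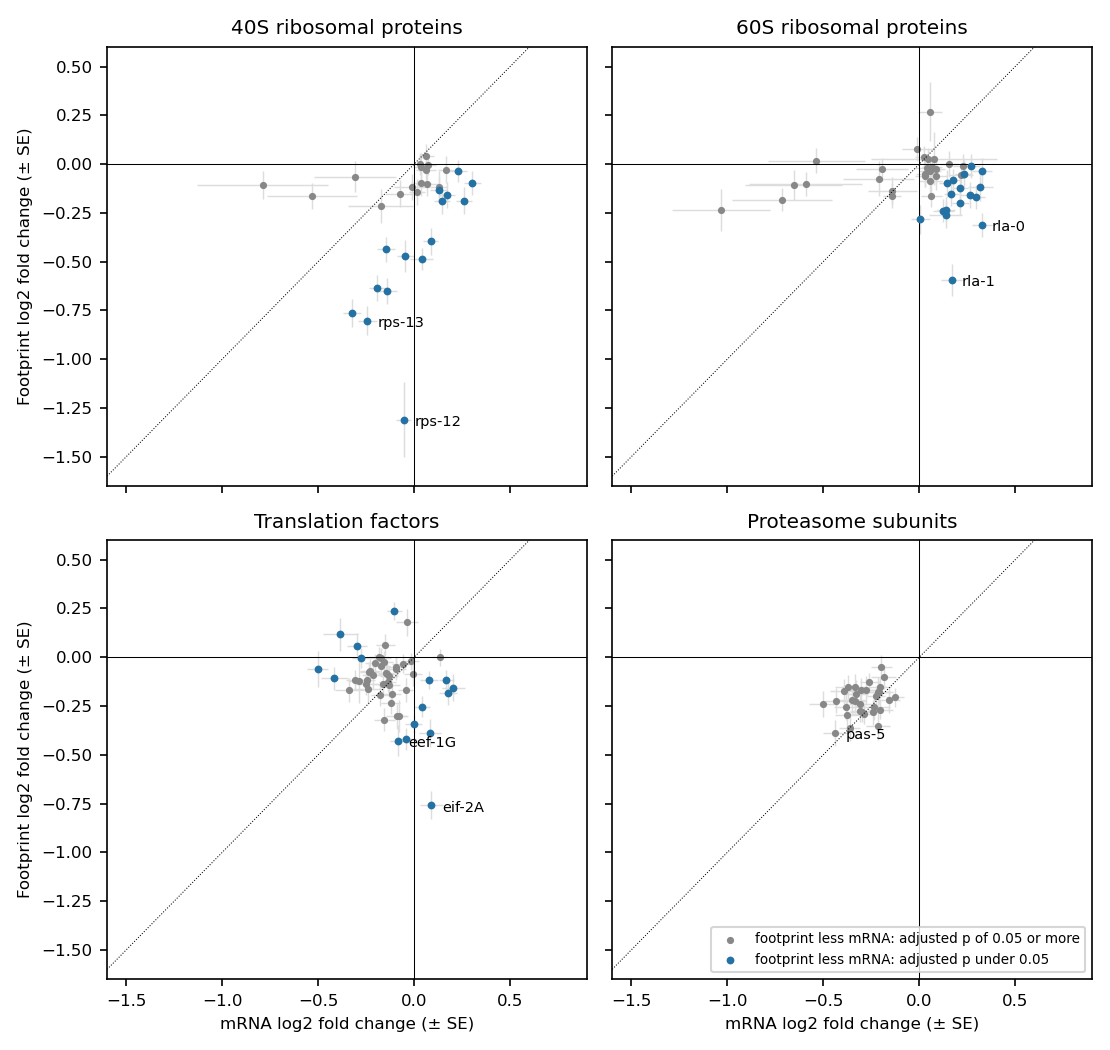
Footprint against mRNA log2 fold change, each with its SE, for the genes of 4 lists; the dotted line marks equal change, and blue points passed the test of the difference (adjusted p under 0.05). The 40S genes with a fall in footprints lie below the line (rps-12 at -1.31 in footprints and -0.05 in mRNA), as do those of the 60S list except rpl-29 (-0.18 and -0.72), whereas none of the 31 proteasome genes passed the test of the difference.

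Among 51 initiation, elongation and termination factors, 14 were lower and 1 higher, with a median of -0.12. Over all genes tested 9.23% were lower, and in the highest quintile of mean CPM 422 of 2147 were (median -0.05). In this list 29.4% were called, beside 20% of all genes. In mRNA 29 of 52 were lower and 4 higher, and the interaction was negative for 10 and positive for 6. The largest fall in footprints was that of eif-2A, the homologue of an initiation factor that can bring initiator tRNA to the ribosome and is distinct from the eIF2 complex. Its footprints were at 107, 111, 130 and 98.4 CPM in Empty_vector and 65.9, 64.9, 64.2 and 69.4 CPM on E02H1.1 RNAi, and the groups did not overlap (-0.76 ± 0.07, adjusted p = 1.75e-07). The mRNA of eif-2A was at 0.09 ± 0.06, so the interaction was -0.86 (adjusted p = 1.57e-06). eef-1G, the gamma subunit of elongation factor 1, fell by 0.43 on the log2 scale, from 224 ± 3.94 to 166 ± 26.3 CPM, and its E02H1.1 libraries B and C were again the lowest, at 143 and 144 CPM beside 186 and 191 CPM. The 1 higher factor was inf-1, a homologue of the initiation helicase eIF4A, at 0.24 ± 0.05.

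Of 29 aminoacyl-tRNA synthetase genes, which charge tRNAs with amino acids, 9 were lower (31%) and none higher, with a median of -0.09. The highest quintile of mean CPM had 422 of 2147 genes lower. All 9 synthetase calls were below 1.5-fold. The lower synthetase genes included rars-1 for arginine (-0.37 ± 0.07) and qars-1 for glutamine (-0.32 ± 0.06). Of 58 genes of ribosome biogenesis and rRNA modification, 8 were lower, the target among them, and none higher, with 5 lower when E02H1.1 B was left out. That is 13.8% of the list with the target counted, near the 9.23% of all genes that were lower. In mRNA 20 of 59 genes of this list were lower and 2 higher, and the interaction was negative for 7 and positive for 6. The nucleolar GTPase gene nog-1, which serves 60S assembly, went from 258 ± 11.9 to 196 ± 17.03 CPM (-0.40 ± 0.06), with an interaction of -0.46 (adjusted p = 5.5e-05).

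Proteasome genes formed the list with the highest share of calls, 20 lower and none higher of 31, and all 31 log2 fold changes were below zero (median -0.22). The changes were small: pas-5, an alpha subunit of the catalytic core, went from 135, 141, 156 and 137 CPM to 112.2, 101.6, 115 and 107 CPM (-0.39 ± 0.07), and rpn-3, a lid subunit of the regulatory particle, fell by 0.37 on the log2 scale. Empty_vector C was the highest control library for pas-5, and without it 12 of the 31 were lower. All 31 were lower in mRNA, and none passed the interaction test. Genes of the unfolded protein response of the endoplasmic reticulum and mitochondria followed, with 10 lower and 1 higher of 27 (median -0.09), or 40.7% called beside 20% of all genes. The ER degradation adaptor gene sel-1 fell by 0.49 and the disulfide isomerase gene pdi-3 by 0.24 on the log2 scale, while xbp-1, the transcription factor of that response, rose by 0.31 ± 0.05.

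Heat shock genes did not move as a block. Of 10 inducible genes tested, 3 were lower, namely hsp-70, hsp-16.2 and hsp-16.41, and 3 were higher, among them the small heat shock genes hsp-17 (0.83 ± 0.17) and hsp-12.3 (0.67 ± 0.16). hsp-17 was at 6.63, 5.90, 5.65 and 6.28 CPM in Empty_vector and 9.02, 11.2, 9.68 and 12.99 CPM on E02H1.1 RNAi, so the groups did not overlap. Among 29 constitutive chaperone genes 5 rose and 5 fell. The Hsp40 gene dnj-13 went from 354 ± 21.1 to 515 ± 30.9 CPM (0.54 ± 0.06) and hsp-90 rose by 0.31 ± 0.05, whereas hsp-110, a nucleotide exchange factor of Hsp70, fell by 0.44 on the log2 scale with its mRNA at -0.01. Without E02H1.1 B only 1 constitutive chaperone gene was lower, and without Empty_vector A, C, D or E02H1.1 C, 3 were.

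Lipid genes went both ways, with 9 higher and 16 lower of 91 (median -0.005), or 27.5% called beside 20% of all genes. Lower genes included desaturases of polyunsaturated fatty acid synthesis. fat-6, a delta-9 desaturase gene, went from 8.80, 8.92, 9.54 and 9.94 CPM to 3.21, 3.95, 4.01 and 2.66 CPM (-1.44 ± 0.17), and fat-2, the delta-12 desaturase gene, went from 7.90 ± 0.76 to 3.42 ± 0.57 CPM (-1.2 ± 0.18). The desaturase genes of the next steps, chosen after their values were seen, were also lower: fat-1 at -0.64, fat-3 at -0.58 and fat-4 at -0.73. For fat-2, fat-1, fat-3 and fat-4 the interaction was negative too (-0.67, -0.54, -0.34 and -0.63, each at an adjusted p under 0.05). The fatty acid and retinol binding gene far-3 rose by 0.66 ± 0.08.

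Central carbon genes showed 9 higher and 13 lower of 47 (median 0.015), or 46.8% called beside 20% of all genes. The muscle aldolase homologue aldo-1 went from 118.7 ± 6.03 to 183 ± 12.4 CPM (0.63 ± 0.06) and the gluconeogenic gene pck-1 from 562 ± 31.4 to 813 ± 87.5 CPM (0.53 ± 0.08). dlat-1, for a pyruvate dehydrogenase subunit, fell by 0.35 and gpd-4, one of a near-identical pair with gpd-1, by 0.44 on the log2 scale. In the propionate and one-carbon list 4 rose and 7 fell of 24 (45.8% called), and without E02H1.1 A and E02H1.1 B the higher genes numbered 1 and 2. acdh-1, the first enzyme of the propionate shunt, was at 10.6, 9.88, 8.59 and 9.42 CPM in Empty_vector and 20.2, 41.3, 13.2 and 13.2 CPM on E02H1.1 RNAi, and E02H1.1 B alone held the highest value (1.22 ± 0.36, adjusted p = 0.0367). That call was lost without Empty_vector C (adjusted p = 0.115), and also without Empty_vector A, B or D or E02H1.1 A. Of 72 genes of oxidative phosphorylation 12 were lower (16.7%) and none higher (median -0.05), with the complex I gene nduf-2.2 at -0.65 and the complex III gene ucr-2.3 at -0.54. Over all genes tested 9.23% were lower, and in the highest quintile of mean CPM 422 of 2147 were (median -0.05).

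Of 80 cytochrome P450, flavin monooxygenase and glucuronosyltransferase genes 6 were higher and 12 lower, or 22.5% called. Antioxidant and glutathione genes gave 7 higher and 3 lower of 51, or 19.6% called (median 0.12). Both shares were near the 20% called over all genes. Among the antioxidant genes the largest rise was that of the glutathione transferase gene gst-24, which went from 0.96, 1.1, 0.59 and 1.4 CPM to 4.41, 5.1, 3.54 and 5.64 CPM (2.27 ± 0.29). In a list of 12 genes of osmotic and desiccation protection, 3 rose and none fell. The complete set was hmit-1.1, the water channel gene aqp-8 (0.53) and lea-1, which encodes a late embryogenesis abundant protein of a family known from desiccated seeds and animals. lea-1 footprints were at 334, 353, 284 and 349 CPM in Empty_vector and 601, 749, 800 and 789 CPM on E02H1.1 RNAi, without overlap (1.16 ± 0.10, adjusted p = 2.87e-06).

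Of 325 immunity genes 73 were tested, and 26 rose and 2 fell (median 0.22), or 38.4% called beside 20% of all genes. Of the 26, 16 were C-type lectin genes, such as clec-67 and clec-265 (1.59 ± 0.28), whereas clec-88 fell by 0.53 and the MAP kinase kinase kinase gene nsy-1 by 0.21 on the log2 scale. Without E02H1.1 A or without E02H1.1 B the higher immunity genes numbered 16.

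Calls among cuticle collagen genes were all in the higher direction. Of 176 cuticle collagen genes 50 were tested, 25 rose, none fell, and all 50 log2 fold changes were above zero, with a median of 0.52 beside 0.005 for all genes. col-77 went from 25.8, 28.1, 18.5 and 22.9 CPM to 58.3, 49.1, 44.1 and 46.2 CPM (1.06 ± 0.22), and col-130 from 2.65 ± 0.34 to 7.28 ± 2.35 CPM (1.46 ± 0.22). Empty_vector C was the lowest control for col-77, and without that library 13 collagens rose. Among 13 collagen-modifying and cuticle enzyme genes 5 were higher and 1 lower, and 3 were higher without Empty_vector C or without E02H1.1 A, B or C. The moulting gene mlt-10 rose by 0.61 ± 0.11, and bli-4, a convertase that trims procollagens, fell by 0.30 on the log2 scale.

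Hedgehog-related and patched-related genes, a family expanded in nematodes and largely expressed in epidermal cells, showed 22 higher and none lower of 58 (median 0.26). Over all genes tested 10.7% were higher. grd-13 went from 2.17, 2.75, 1.77 and 0.52 CPM to 10.02, 9.06, 7.55 and 8.45 CPM (2.22 ± 0.28) and grl-21 rose by 2.17 ± 0.24. Transthyretin-related genes, which encode small secreted proteins, showed 17 higher and none lower of 30 (median 0.30), with ttr-15 and ttr-31 (1.55 ± 0.27) at the top. The embryonic sheath and apical matrix list gave 2 higher and none lower of 21, the cuticlin genes cut-2 and cut-3, and neither was past the threshold without Empty_vector A, C or D or E02H1.1 A or B.

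**Figure D4:**
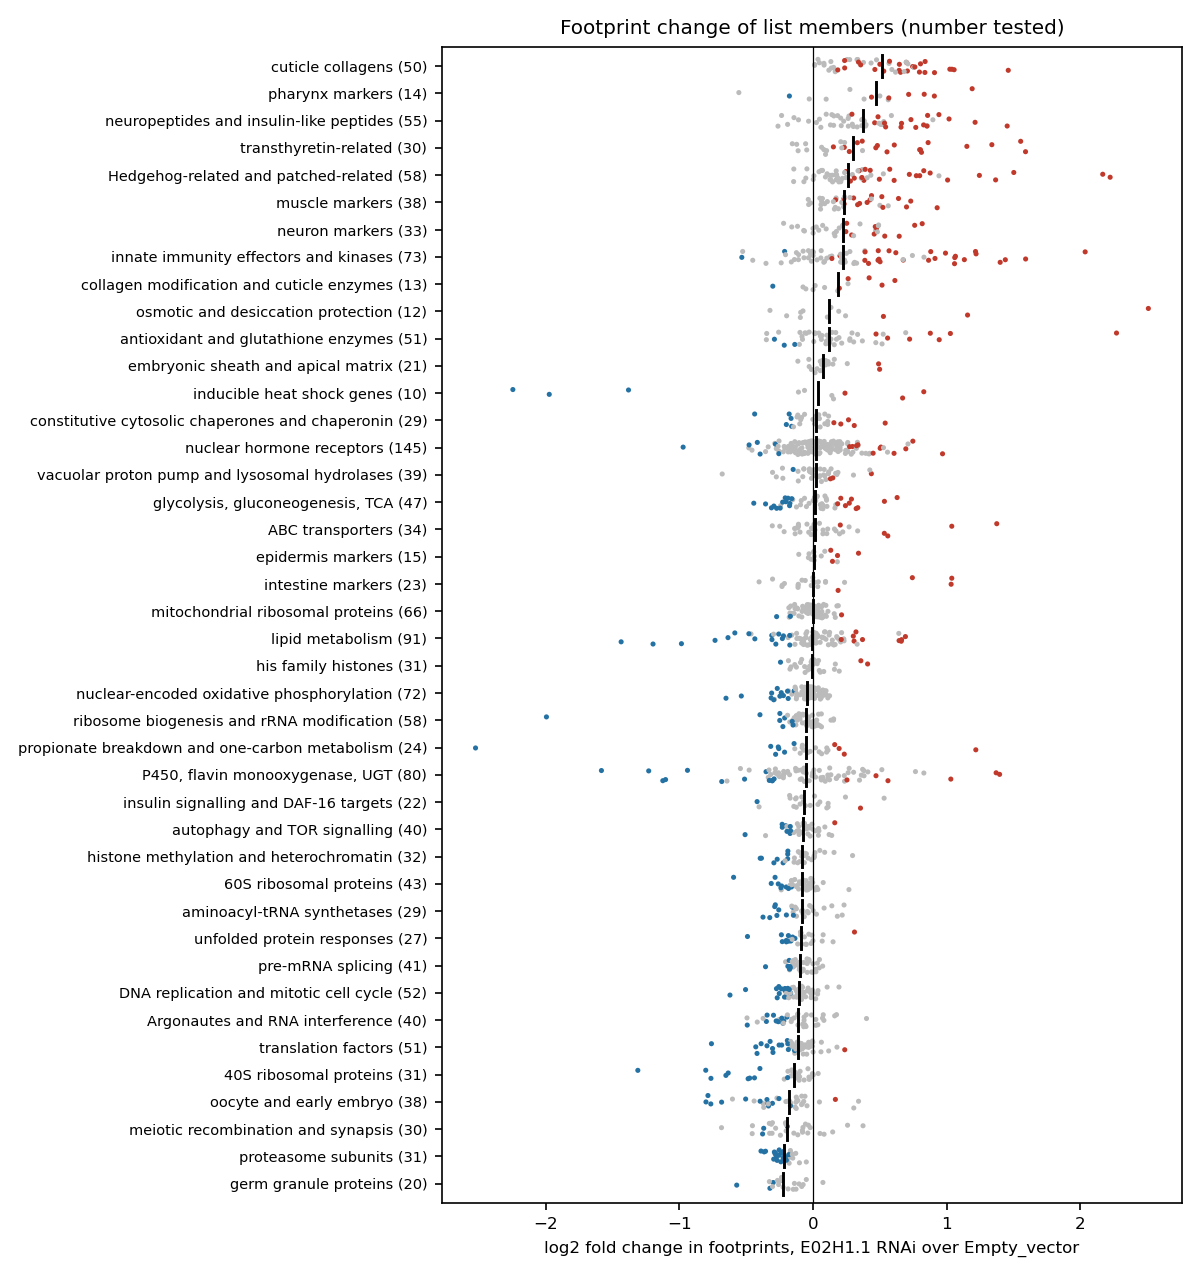
Log2 footprint fold change of every tested member of the 42 lists with at least 10 members tested, with the number tested in brackets; red and blue points passed an adjusted p of 0.05, grey points did not, and black bars are list medians. Collagens stand at the top (median 0.52) and germ granule and proteasome genes at the bottom (medians -0.23 and -0.22), and the vitellogenin and sperm lists are not drawn.

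In the neuron, muscle, pharynx and neuropeptide lists some members passed the test, and all but 1 of those were higher. Neuropeptide and insulin-like genes showed 16 higher and none lower of 55 (median 0.37), with 7, 9 and 10 higher without E02H1.1 A, Empty_vector C and E02H1.1 B. Neuron markers showed 10 higher and none lower of 33 (median 0.22, and 6 higher without E02H1.1 A). Their summed level was 938 to 1046 CPM in Empty_vector and 1053 to 1197 CPM on E02H1.1 RNAi, and unc-17, the vesicular acetylcholine transporter gene, went from 6.31 ± 0.52 to 11.1 ± 1.79 CPM (0.82 ± 0.18). Muscle markers showed 15 higher and none lower of 38 (median 0.23, and 9 higher without E02H1.1 A), with sums of 9706 to 10780 CPM and 11140 to 12800 CPM. The troponin T gene tnt-2 went from 13.01, 15.8, 10.01 and 12.7 CPM to 29.3, 25.7, 18.9 and 23.3 CPM (0.93 ± 0.16). Pharynx markers showed 6 higher and 1 lower of 14 (median 0.47), with sums of 947 to 1148 CPM and 1140 to 1380 CPM, led by the gland genes phat-4 (1.19 ± 0.14) and phat-5 (0.91 ± 0.11). The muscle and pharynx lists share the entries myo-1, myo-2, tnc-2 and tni-4, so their counts are not separate. Intestine markers showed 4 higher and none lower of 23 (17.4%, median -0.001). Epidermis markers showed 4 higher and none lower of 15 (26.7%, median 0.01). Both medians stood near that of all genes, while both shares were above the 10.7% of all genes that were higher. Without any 1 of 7 of the 8 libraries, 2 epidermis markers were higher. These libraries are of whole worms, so a change in the share of a cell type and one in RNA per cell cannot be told apart. The part of tissue make-up or of developmental stage in the other changes was not tested.

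Germline and cell division lists held more lower than higher calls, in numbers that changed with single libraries. Over all genes tested 9.23% were lower, and in the highest quintile of mean CPM 422 of 2147 were. In the oocyte and early embryo list 12 were lower and 1 higher of 38 (median -0.18), with 5, 5 and 7 lower without Empty_vector C, E02H1.1 B and E02H1.1 D. Its summed level was 3772 to 4237 CPM in Empty_vector and 3499 to 3829 CPM on E02H1.1 RNAi, so the sums overlapped. cey-2, a germline Y-box protein gene, went from 19.04, 22.8, 22.4 and 21.3 CPM to 11.4, 12.19, 12.04 and 13.6 CPM (-0.79 ± 0.12). lin-41, an RNA-binding regulator of oocytes, fell in footprints (-0.80 ± 0.25, adjusted p = 0.0252) while its mRNA rose (0.38 ± 0.11), with an interaction of -1.2 (adjusted p = 0.00267). The footprint call of lin-41 was lost without E02H1.1 B (adjusted p = 0.117), without E02H1.1 D (0.0599) and without Empty_vector C (0.0755). Replication and mitotic genes gave 14 lower and none higher of 52 (median -0.11), with 7, 8 and 9 lower without Empty_vector C, E02H1.1 A and E02H1.1 B. The phosphatase gene cdc-25.1, which drives germline divisions, fell by 0.50 on the log2 scale.

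In the small RNA and chromatin lists the calls were all lower and were a minority of the members. Over all genes tested 9.23% were lower, and in the highest quintile of mean CPM 422 of 2147 were. Of 40 Argonaute and RNA interference genes 10 were lower (25%) and none higher (median -0.11), including the Argonaute gene wago-1 (-0.49 ± 0.07) and the nuclear RNAi gene nrde-2 (-0.35 ± 0.05). Of 32 histone methylation and heterochromatin genes 8 were lower (25%) and none higher (median -0.08), with 4 lower without E02H1.1 A and 5 without Empty_vector C or D. The 2 with the largest falls, mes-3 and mes-6, encode partners in one complex that methylates histone H3 at lysine 27. mes-3 was at 124, 125, 125 and 111 CPM against 89.6, 85.3, 98.2 and 99.7 CPM (-0.39 ± 0.06, mRNA 0.00) and mes-6 at 44.3 ± 3.24 against 33.7 ± 1.2 CPM (-0.39 ± 0.08, mRNA -0.01), and both passed the interaction test, at -0.40 (adjusted p = 0.003 and 0.011). Germ granule genes had 4 lower and none higher of 20 (median -0.23). Those calls were few without Empty_vector C (0), E02H1.1 A, B or D (1 each) and Empty_vector B (2). Meiotic genes had 3 lower and none higher of 30 (median -0.20), a share near the 9.23% of all genes that were lower. They included the BRCA1 homologue brc-1 (-0.38 ± 0.09) and dsb-2 (-0.37 ± 0.08), which is needed for meiotic breaks; 6 were lower without E02H1.1 C.

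The remaining lists had few calls or a share near that of all genes. Autophagy and TOR genes had 1 higher and 8 lower of 40 (5 lower without E02H1.1 C or D), led by nprl-2, a subunit of a complex that restrains TOR, at -0.51 ± 0.07. Splicing genes had 6 lower and none higher of 41, with sut-2 at -0.35 ± 0.05. Nuclear hormone receptors had 11 higher and 6 lower of 145 (7 higher without E02H1.1 B), and ABC transporters 5 higher and none lower of 34 (3 without Empty_vector D or E02H1.1 A). The vacuolar proton pump and lysosome list had 3 higher and 1 lower of 39, of which asp-5, an aspartyl protease gene, rose by 0.44 ± 0.10. In that list 1 was higher without Empty_vector D, E02H1.1 A or E02H1.1 B, and none was lower without Empty_vector A, Empty_vector B or E02H1.1 C. Insulin signalling genes had 1 higher and 1 lower of 22, his family histone genes 2 higher and 1 lower of 31, and sperm genes 1 lower of 4, calls that 1 library could end or add.

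Across all genes tested in both assays, 1171 of 2143 footprint calls (54.6%) were also called in mRNA in the same direction, which is 24.5% of the 4784 mRNA calls there, and 77 were called in the opposite direction. A further 895 footprint calls had mRNA past no threshold, and 300 of these passed the interaction test. Of the 411 footprint calls that passed it, 327 were lower in footprints and 84 higher. The 12 highest genes mostly moved with their message: only ZK1055.6 passed the interaction test among them (0.82, adjusted p = 0.0434), and among the 12 lowest gln-6, rps-12 and rps-13 did.

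The direct test of E02H1.1 RNAi against C27F2.4 RNAi, which does not use the shared controls for its difference, called 134 of 10736 genes (1.25%), 66 higher and 68 lower on E02H1.1 RNAi. That count was 69 to 120 without 1 of 7 of the 8 libraries and 413 without C27F2.4 A. Of the genes called against Empty_vector, 111 also differed from C27F2.4 RNAi in the same direction. lea-1 was among the clearest: its footprints were at 296, 298, 270 and 233 CPM on C27F2.4 RNAi, at or below Empty_vector, so that the difference between the knockdowns was 1.42 ± 0.10 (adjusted p = 1.29e-06). hmit-1.1 was at 5.02 ± 0.31 CPM on C27F2.4 RNAi against 16.54 ± 2.94 CPM on E02H1.1 RNAi, a difference of 1.74 ± 0.16 (adjusted p = 3.3e-07). cyp-35C1 was at 77.5, 68.9, 60.1 and 75.3 CPM on C27F2.4 RNAi, within or above the control range, against 24.7 to 29.98 CPM on E02H1.1 RNAi (difference -1.37 ± 0.09, adjusted p = 7.31e-10).

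**Figure D5:**
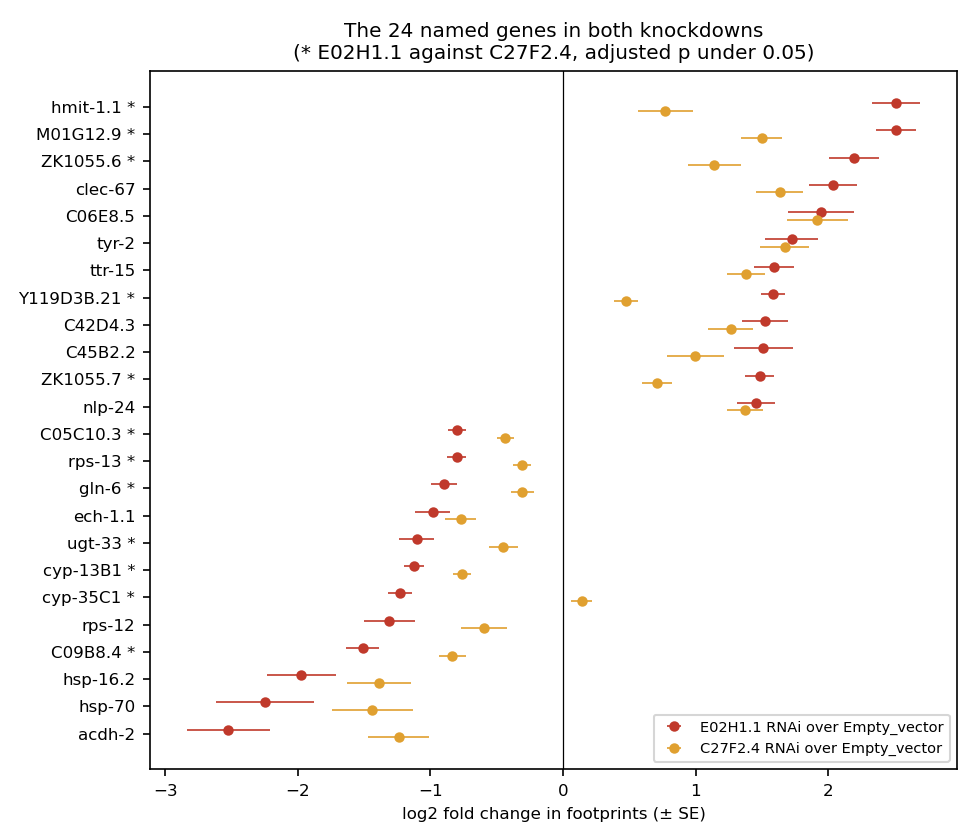
Log2 footprint fold change with its SE over the shared Empty_vector libraries, in red for E02H1.1 RNAi and in yellow for C27F2.4 RNAi, for the 24 genes named as highest and lowest; an asterisk marks an adjusted p under 0.05 in the direct test between the knockdowns. Changes on E02H1.1 RNAi were larger for hmit-1.1 (2.51 against 0.77) and Y119D3B.21 (1.59 against 0.47), and cyp-35C1 stood at -1.23 against 0.14.

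Of the 24 genes named as highest and lowest, 12 passed that direct test, each in the direction of a larger change on E02H1.1 RNAi, a direction favoured by their choice as the extremes of the change on E02H1.1 RNAi. Y119D3B.21 differed by 1.11 ± 0.08 and rps-13 by -0.49 ± 0.07. The 5 40S genes rps-13, ubl-1, rps-22, rps-2 and rps-4, were lower on E02H1.1 than on C27F2.4 RNAi, and no 60S gene passed. Also past the test were fat-6 (-1.02 ± 0.17), fat-2 (-0.95), gst-24 (1.53 ± 0.25), ugt-8 (-1.68), eif-2A (-0.36 ± 0.07) and far-3 (0.60). For C06E8.5, tyr-2 and nlp-24 the differences between the knockdowns were 0.03 ± 0.19, 0.05 ± 0.16 and 0.08 ± 0.12, which did not pass. Several list changes were also seen on C27F2.4 RNAi over Empty_vector, where 533 of all genes were higher and 227 lower. There 7 of 31 40S genes were lower and none higher (median -0.10). Cuticle collagens had 21 higher (median 0.46), Hedgehog-related and patched-related genes 18 and pharynx markers 8 (median 0.47), with none lower. No proteasome gene was called on C27F2.4 RNAi (median -0.06). In the direct test between the knockdowns, 3 of 31 proteasome genes were lower on E02H1.1 RNAi and none was higher.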

How the data were processed

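Counts per gene of mRNA-seq and Ribo-seq were deposited as whole numbers, with 1 column per library and no scaling. Per the submitters' processing notes, cutadapt was among the tools. Not given in the sources used here were the aligner, counting tool, build, annotation and use of strand, so overlapping and antisense genes could not be told apart. Of 10741 gene IDs in the footprint table, 10731 matched a symbol. Column letters (A to D) stand where the labels carry numbers. The 12 columns of other groups in each table and the deposited translational efficiency table were not used, and sequences, coordinates and protein lengths are not given because no table of them was used here.

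Footprints of the 3 RNAi groups were fitted together with edgeR 4.0.16 in R 4.3.3: filterByExpr, TMM, a robust quasi-likelihood fit on group, two-sided tests and Benjamini-Hochberg adjustment over all genes, with an adjusted p under 0.05 as threshold. mRNA was fitted likewise, and the interaction in 1 model of both assays. The SE of a log2 fold change is its size over the square root of F. Named genes were the targets, the called genes with the 12 highest and the 12 lowest log2 fold changes (groups of 4 apart, a group mean of at least 10 CPM, no more than 2 of one symbol stem) and, from each of 44 gene lists, at most 2 that rose and 2 that fell, which the text describes by counts and medians with no set test. Members of lists not in the footprint table were not tested. Lists, rules and comparisons were chosen with earlier results of these data known. The scripts were tested on simulated data. Alternatives were DESeq2 1.42.0 (size factors and Wald test), limma voom (limma 3.58.1), library totals, other filters, thinning, the 2 groups alone, blocks and leaving out each library.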

Additional observations from a re-analysis of the deposited data

Results flagged for a closer look

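In 252 groups of 4 footprint libraries (126 named genes, Empty_vector and E02H1.1 RNAi), 15 held 1 library set apart from the other 3, where chance gives about 1 in 20. Values are CPM. Empty_vector C was the high library for wago-1 (171 beside 137 to 142), meg-3 (55.8 beside 41.2 to 43), cyb-2.2 (11.7 beside 7.71 to 8.02) and sftb-1 (574 beside 514 to 524). Elsewhere in Empty_vector, library A was low for rars-1 (73.6 beside 80.1 to 81.1) and high for fat-2 (9.04 beside 7.41 to 7.65), B was high for cat-1 (4.12 beside 2.94 to 3.01) and D was low for mes-3 (111 beside 124 to 125). On E02H1.1 RNAi, library B was low for C27F2.4 (54.2 beside 64.2 to 65.7) and high for far-3 (70.5 beside 57.4 to 58.7) and spe-48 (30 beside 26.5 to 27.1). Library D was high for C05C10.3 (50.6 beside 46.5 to 47) and low for dpy-7 (218 beside 256 to 262), C was high for ucr-2.3 (72.5 beside 61.3 to 62.1) and A was low for epg-6 (203 beside 224 to 226).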

How the results depend on the processing

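Footprint calls numbered 1704 to 2808 under 9 alternatives other than leaving out libraries, and 1521 to 1999 when each library was left out in turn, beside 2145. The alternative with no filter on low counts (2147 calls) could change little, since the filter removed only 5 genes. Higher calls ranged from 720 to 1103 with a library left out, beside 1154. Of 125 named genes past the threshold, 98 were called under all 17 alternatives that tested them, and none reversed. Genes changed at least 1.5-fold numbered 568, and 319 in a separate fit that required 50 counts in 4 libraries and so tested fewer low genes. Calls of the difference between footprint and mRNA change, 1138, became 751 with counts thinned to the smallest library, 2199 with a replicate block that joins same-lettered mRNA and footprint columns of a group, which no label says share a culture, and 655 to 1089 with a library left out. Calls between the knockdowns, 134, became 640 with voom, 430 with a replicate block by letter and 69 to 413 with a library left out; without C27F2.4 A they were 413. The causes were not tested. Same-lettered Empty_vector and E02H1.1 footprint libraries deviated together with r of 0.0277, 0.065, 0.206 and -0.0576, and E02H1.1 and C27F2.4 libraries with r of 0.284, -0.0602, 0.245 and 0.0756. Not every pair was over 0.1, so the letters were not taken as pairs, and a replicate block by letter gave 2808 footprint calls. Library totals in place of TMM gave 1251 higher and 846 lower. The shallowest library, of 4230962 counts, limits what is seen in low genes.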

Other observations

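Gene families grouped by symbol stem, among stems with at least 20 genes tested, held some changes not in the lists. Of 24 npp genes, which encode nucleoporins, 5 were lower and none higher (median log2 fold change -0.11), and of 30 vps genes, for vacuolar protein sorting, 5 were lower and none higher (median -0.11). Of 29 dnj genes, for J-domain co-chaperones, 9 were lower and 1 higher (median -0.11). Genes of the cutl stem, cuticlin-like, had 5 higher and none lower of 27 (median 0.24), and those of the pqn stem, with stretches rich in glutamine and asparagine, had 15 higher and 5 lower of 38 (median 0.22). Among F-box genes, fbxa had 4 higher and 1 lower of 43 and fbxb none higher and 1 lower of 95, and the difference between these stems was not tested. Over all genes tested, 10.7% were higher and 9.23% lower. These stems were chosen after their values were seen.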
